A study of Mus musculus with 4 samples.

Results

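Histone transcripts were followed across 4 microarrays of mouse embryoid bodies, and most of them were slightly lower in the array from cells treated with GSK-J4 than in the 3 control arrays. The members are the 60 probe sets of the array whose every platform gene symbol names a histone of the H1, H2A, H2B, H3 or H4 families (symbols that start with H1f and a digit, H2ac, H2bc, H3c, H4c or the older Hist names), out of 25335 probe sets with a gene symbol and 41345 in all. They carry 61 different histone symbols. Of the 60 probe sets, 30 carry a single symbol and 30 carry several, because the copies of a histone gene are nearly the same in sequence. A further 8 probe sets that mix histone symbols with one that did not match the rule were left out, and their values are given near the end.

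Each treatment has 1 array. Embryoid bodies, the aggregates in which embryonic stem cells start to differentiate, were made from the mouse line R1 after its feeder cells had been depleted, and were kept for 18 h without the cytokine LIF. One culture grew in embryoid body medium alone and one had DMSO added. The other two received a compound at 1.88 µM, either GSK-J5 or GSK-J4. GSK-J4 is an ester that cells convert into an inhibitor of the KDM6 demethylases, and GSK-J5 is the ester of a much less active isomer, which the labels call a vehicle compound. All 4 groups share the line, the time and the withdrawal of LIF, and no array from before differentiation was analysed here. Replicate spread cannot be measured from such a design, so the differences below are descriptions. The range of the 3 controls is the only spread at hand. The controls are 3 different treatments, so their range can mix treatment effects with noise.

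Histones package DNA into nucleosomes: pairs of H2A-H2B and H3-H4 form the core, and the linker histone H1 binds where DNA enters and leaves it. Most core and linker histones are made during DNA replication from clusters of short intronless genes, whose mRNAs end in a stem-loop instead of a poly(A) tail. A few family members escape this rule, being expressed mainly in germ cells or oocytes, or outside S phase. H3 also carries the repressive methyl mark that PRC2 adds and KDM6 enzymes remove.

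All values are log2 expression levels, with the base inferred from their range. The margin is the distance on the log2 scale from GSK-J4 to the nearest control, negative where GSK-J4 was below all 3 controls and 0 where it lay within their range. A probe set was called lower or higher when its margin reached 1.5-fold (0.585) and its mean over the 4 arrays reached a filter level of 6.55, which 38 of the 60 did. Signal over background could not be examined, so levels under the filter were not shown to be above background. A level cannot be compared between probe sets as an amount of RNA, and a lower level cannot be told apart from fewer cells that express the gene.

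GSK-J4 lay below all 3 controls for 40 of the 60 histone probe sets (66.7%) and above all of them for 8 (13.3%). Among all annotated probe sets 35.7% lay below and 30.9% above. The median difference between GSK-J4 and the mean of the controls was −0.14 for the 60, against −0.02 for all annotated probe sets, so the shift was small. In 27 of the 40 the margin was smaller than 0.2. For 20 of the 60 (33.3%) the distance below the nearest control exceeded the range of the controls themselves, against 15.1% of all annotated probe sets. At 1.2-fold, with no filter on level, 11 of the 60 (18.3%) were lower and 3 (5.0%) higher. The share of all annotated probe sets was 5.9% and 7.52%. Among members past the filter 7 (18.4%) were lower and 1 (2.63%) higher at 1.2-fold. For all annotated probe sets past the filter the shares were 5.9% and 9.44%.

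By the 1.5-fold rule 2 of the 38 histone probe sets past the filter were called lower and 0 higher. Among all annotated probe sets past the filter the rule called 0.782% lower and 2.13% higher. Both members called were germ line histones, H2ac1 and H2bc1. Just outside the rule lay the H3 probe set 17285680 (margin −0.49) and H4c17 (−0.43). When limma pooled the 3 controls as if they were replicates, with 2 residual degrees of freedom, 5 members were lower (H2ac1, H2bc1, H2ac20, H4c17 and H1f10) and 0 higher at an adjusted p under 0.05, where the fit called 4.01% of the 15212 probe sets lower and 7.04% higher. At an unadjusted p under 0.05 it had 12 members lower and 2 higher, against 14.0% and 18.1% of those probe sets. The fit covered only the 38 members past the filter and treats unlike treatments as replicates.

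**Figure D1:**
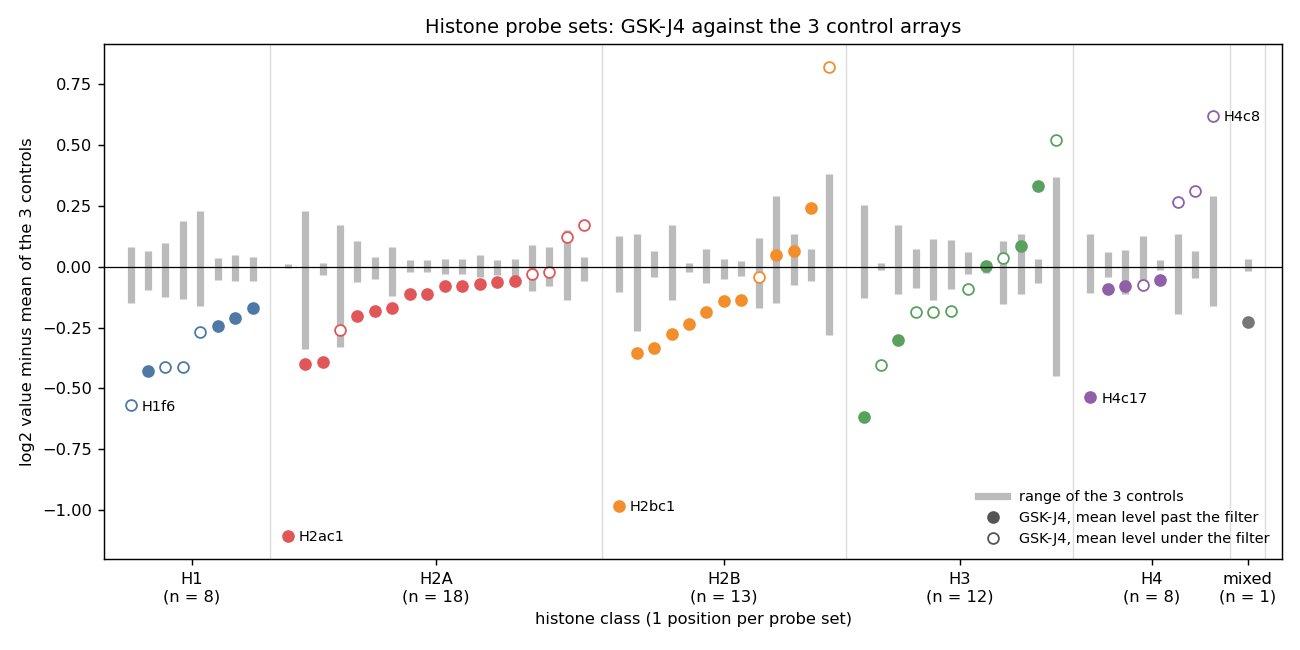
Each position is 1 of the 60 histone probe sets, grouped by histone class. The circle is GSK-J4 minus the mean of the 3 controls on the log2 scale (filled where the mean level passed the filter, open where it did not), and the grey bar is the range of the 3 controls. All 8 H1 circles lie below their bars, H2ac1 (−1.11) and H2bc1 (−0.98) lie lowest, and 6 of the 8 circles above their bars are open.

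The germ line pair H2ac1 and H2bc1 had the largest downward differences between GSK-J4 and the controls of the 60 members. H2ac1 encodes TH2A, an H2A variant of testis and oocyte, and read 12.64 in medium, 12.62 in DMSO, 12.62 in GSK-J5 and 11.52 in GSK-J4. Its 3 controls spanned 0.02, and GSK-J4 lay 2.14-fold below the nearest of them. H2bc1 encodes TH2B, the H2B partner of TH2A, and read 9.74 in medium, 9.97 in DMSO, 9.82 in GSK-J5 and 8.86 in GSK-J4, 1.84-fold below the nearest control. In both genes GSK-J4 lay outside the controls, which the 1.5-fold rule requires of every called probe set. Both probe sets carry a single symbol, and the margins stayed between −1.10 and −1.08 for H2ac1 and between −0.93 and −0.88 for H2bc1 under median centring, repeated quantile normalization and loess.

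H2ac1 and H2bc1 are neighbours that are transcribed away from each other, with 280 bases between their start sites in the RefSeq annotation of GRCm38.p6. The stretch of 220 bases that the promoter windows of both genes hold is printed because these members moved together and share it. It lies at chr13:23934187-23934406 and is given on the plus strand. Capitals mark matches to 4 short motifs known from histone promoters, searched on both strands: the TATA box (TATAAA), the CCAAT box, the octamer known from H2B promoters (ATTTGCAT) and an element known from H4 promoters (GGTCC).

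H2ac1-H2bc1: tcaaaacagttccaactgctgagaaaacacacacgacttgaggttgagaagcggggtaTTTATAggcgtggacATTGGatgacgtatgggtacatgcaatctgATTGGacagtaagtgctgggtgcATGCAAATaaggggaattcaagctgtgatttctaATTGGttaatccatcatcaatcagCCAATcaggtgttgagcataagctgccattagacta

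Within this stretch the octamer begins at base 127 and the TATAAA match at base 59, both read on the minus strand, the direction of H2bc1. CCAAT occurs at bases 74, 104 and 161 on the minus strand and at base 185 on the plus strand, and no 2 matches overlap. A match is a description of letters and does not show that a factor binds there.

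The same letters were counted in the promoter windows of the other members. The RefSeq table of GRCm38.p6 held windows for 56 of the 61 symbols, 57 windows in all because H2bc6 has 2, each of 300 bases from 250 before to 50 after the start. CCAAT was in 49 of the 57 (86.0%) against 37.4% of all 32851 windows, TATAAA in 31 (54.4%) against 13.6%, and the octamer in 13 (22.8%) against 1.74%. The octamer was found in 7 of 14 H2B and 6 of 17 H2A windows and in 0 of the H1, H3 and H4 windows. Windows of neighbouring genes can overlap, so a motif in shared bases is counted for both genes. Overlapping windows that both hold the octamer are those of H2ac1 and H2bc1, H2ac12 and H2bc12, and H2ac8 and H2bc8. GGTCC was in 22 of the 57 (38.6%) against 45.5% of all windows, but in 6 of 7 H4 windows.

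As examples of these 2 motifs, the 120 bases before the start of 3 other H2B genes with the octamer and of 2 H4 genes with GGTCC follow in the direction of each gene, with capitals as before. H2bc12 and H2bc3 were chosen after their values were seen, and these are not all the genes with the octamer. They lie at chr3:96269580-96269699 (H2bc18, plus strand), chr13:22035701-22035820 (H2bc12, plus), chr13:23746614-23746733 (H2bc3, plus), chr13:21811626-21811745 (H4c17, plus) and chr13:21750554-21750673 (H4c12, minus).
H2bc18: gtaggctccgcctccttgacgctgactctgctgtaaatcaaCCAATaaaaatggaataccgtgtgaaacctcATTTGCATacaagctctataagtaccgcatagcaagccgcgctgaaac
H2bc12: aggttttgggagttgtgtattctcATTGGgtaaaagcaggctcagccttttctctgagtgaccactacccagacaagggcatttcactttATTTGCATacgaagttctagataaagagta
H2bc3: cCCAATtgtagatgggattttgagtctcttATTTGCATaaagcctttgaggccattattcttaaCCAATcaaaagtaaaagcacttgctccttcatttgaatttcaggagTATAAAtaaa
H4c17: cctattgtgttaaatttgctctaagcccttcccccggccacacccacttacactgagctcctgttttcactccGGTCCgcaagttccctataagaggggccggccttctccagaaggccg
H4c12: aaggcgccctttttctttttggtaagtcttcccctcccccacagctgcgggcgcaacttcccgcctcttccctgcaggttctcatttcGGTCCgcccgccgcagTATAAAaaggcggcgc
The octamer is marked in each of the 3 H2B sequences and GGTCC in both H4 sequences. The octamer was also in windows of H2bc14, H2bc6 and H2bc8, which are not printed and were named after their values were seen. GSK-J4 was lowest for the 3 printed H2B genes, but H2bc14 read 6.97 against controls of 6.77 to 7.21. Probe sets that name H2bc6 and H2bc8 lay on both sides of their controls. Whether any motif bears on the array values was not tested.

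The other germ line members were linker histones, and all 3 were dim. H1f6, the testis linker histone H1t, read 6.25 in medium, 6.02 in DMSO, 6.24 in GSK-J5 and 5.60 in GSK-J4. H1f7, a linker histone of spermatids named after its values were seen, read 5.87 under GSK-J4 where the controls read 6.15 to 6.47, and H1f8, the oocyte linker histone, read 6.03 against 6.14 to 6.53. GSK-J4 was the lowest array for each, but these levels lie under the filter, so the sizes are not exact. Over the 5 germ line and oocyte members the median difference was −0.57, and for the 54 replication-dependent probe sets it was −0.10.

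Among H1 linker histones as a class, all 8 probe sets lay below the controls, against 35.7% of all annotated probe sets. The H1 median difference was −0.34, the lowest of the 5 classes. H1f10, a linker histone expressed outside S phase, read 10.91 in medium, 10.75 in DMSO, 10.88 in GSK-J5 and 10.42 in GSK-J4, a margin of −0.33. A second probe set that names H1f10 together with Gm5577 is not a member and read 7.54 against 7.59 to 7.70. H1f5, the brightest of the class, read 12.37 in medium, 12.45 in DMSO, 12.47 in GSK-J5 and 12.26 in GSK-J4. Named after their values were seen, the somatic subtypes H1f2 and H1f1 read 10.56 against 10.75 to 10.84 and 7.36 against 7.51 to 7.62, and H1f3 read 6.10 against 6.39 to 6.61. In these 4 somatic subtypes GSK-J4 was the lowest array, by 0.11 to 0.29 below the nearest control. The 0.29 belongs to H1f3, whose mean of 6.41 is under the filter level. Of the 8 H1 probe sets, 4 lie under that level. Without the germ line members and H1f10 the H1 median was −0.23. A probe set that names H1f4 beside 3 H2B genes fits no single class and read 6.65 against 6.86 to 6.91.

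Of 18 H2A probe sets, 13 lay below the controls (72.2%) and 1 above (5.56%), against 35.7% and 30.9% of all annotated probe sets. The H2A median was −0.10. H2ac20 was the lowest after H2ac1: it read 8.89 in medium and in DMSO, 8.84 in GSK-J5 and 8.48 in GSK-J4, a margin of −0.36. At the bright end, a pair of probe sets shared by H2ac18, H2ac19 and H2ac20 held the same 4 values, 13.85 in medium, 13.82 in DMSO, 13.88 in GSK-J5 and 13.77 in GSK-J4. GSK-J4 was again lowest there, but by only 0.05. A second pair of H2A probe sets, each with 12 symbols, also held identical values (13.60 in GSK-J4 against 13.69 to 13.74), so the 60 probe sets hold 58 distinct sets of values.

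Dim H2A probe sets did not follow the bright ones. Probe set 17285838, which names 10 H2A genes from H2ac4 to H2ac24, read 5.48 in medium, 5.58 in DMSO, 5.56 in GSK-J5 and 5.71 in GSK-J4, the only H2A value above all controls. Probe set 17285677, with the same 10 symbols, read 6.52, 6.23 and 6.35 in medium, DMSO and GSK-J5 and 6.49 in GSK-J4, within the controls. Both lie under the filter level.

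H2B showed 8 of 13 probe sets below the controls (61.5%) and 2 above (15.4%), against 35.7% and 30.9% of all annotated probe sets. The H2B median was −0.14. After H2bc1 the lowest by margin was H2bc18, which read 10.58 in medium, 10.56 in DMSO, 10.67 in GSK-J5 and 10.27 in GSK-J4. Named after their values were seen, H2bc12 read 12.45 against 12.66 to 12.70 and H2bc3 read 12.05 against 12.17 to 12.31. The brightest H2B probe set, 17290997, names H2bc7, H2bc11, H2bc13 and H2bc15 and read 13.90 in medium, 13.95 in DMSO, 13.96 in GSK-J5 and 13.80 in GSK-J4. These 4 probe sets had their lowest value in GSK-J4.

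A dim probe set for the same 4 H2B genes went the other way. Probe set 17285746 read 6.57 in medium, 6.09 in DMSO, 5.91 in GSK-J5 and 7.01 in GSK-J4, a difference of 0.82 from the control mean and the highest of all members. Its mean of 6.39 is under the filter level, and its controls spanned 0.66. Probe set 17285834, which names H2bc4, H2bc6 and H2bc8, read 7.87, 7.96 and 7.83 in the controls in the same order and 8.13 in GSK-J4. Another probe set with those 3 symbols, 17285851, named after its values were seen, read 8.16, 8.17 and 7.77 and then 7.68 in GSK-J4, so the 2 probe sets for these genes disagreed in direction.

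None of the 12 H3 probe sets names a single gene: 4 are shared by H3c1, H3c8, H3c10 and H3c11, and 8 by H3c2, H3c3, H3c4, H3c6, H3c7, H3c13, H3c14 and H3c15. Below the controls lay 7 (58.3%) and above them 2 (16.7%), against 35.7% and 30.9% of all annotated probe sets. The H3 median was −0.14. The lowest, probe set 17285680 of the first group, read 7.70 in medium and in DMSO, 8.08 in GSK-J5 and 7.21 in GSK-J4. GSK-J5 was the highest and GSK-J4 the lowest array, on either side of the 2 untreated and vehicle arrays. Probe set 17285842 of the second group followed, with 6.46, 6.45 and 6.48 in the controls and 6.06 in GSK-J4. Its mean of 6.36 is under the filter level.

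Other H3 probe sets with the very same 8 symbols differed in direction. The brightest, 17400555, read 9.37 in medium, 9.37 in DMSO, 9.33 in GSK-J5 and 9.36 in GSK-J4, which is within the controls. Probe set 17400559 read 6.54, 6.64 and 6.64 in the controls and 6.94 in GSK-J4, above all of them. Probe set 17291222 was dim and read 5.57, 4.75, 5.28 and 5.72 in the same order. The median was 0.0033 over the 5 H3 probe sets past the filter and −0.18 over the 7 under it.

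H4 had 3 of 8 probe sets below the controls (37.5%) and 3 above (37.5%), the most even split of the 5 classes. These shares were near the 35.7% and 30.9% of all annotated probe sets. The H4 median was −0.06, but −0.0275 without the GSK-J5 array and −0.0195 under loess. H4c17 read 8.0 in medium, 7.92 in DMSO, 8.16 in GSK-J5 and 7.49 in GSK-J4. The probe set shared by H4c17 and 5 other H4 genes read 10.64, 10.62 and 10.72 in the controls and 10.57 in GSK-J4, a margin of −0.05. H4c12, the brightest, read 13.84 in medium, 13.80 in DMSO, 13.80 in GSK-J5 and 13.76 in GSK-J4. The large H4c17 difference was therefore seen on its own probe set and not on the shared one.

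The 3 H4 probe sets above the controls were all under the filter level. H4c8 read 3.84 in medium, 3.42 in DMSO, 3.39 in GSK-J5 and 4.17 in GSK-J4, and H4c14 read 6.44, 6.33 and 6.36 in the controls and 6.69 in GSK-J4. H4c2, named after its values were seen, read 4.12 against 3.66 to 3.99.

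**Figure D2:**
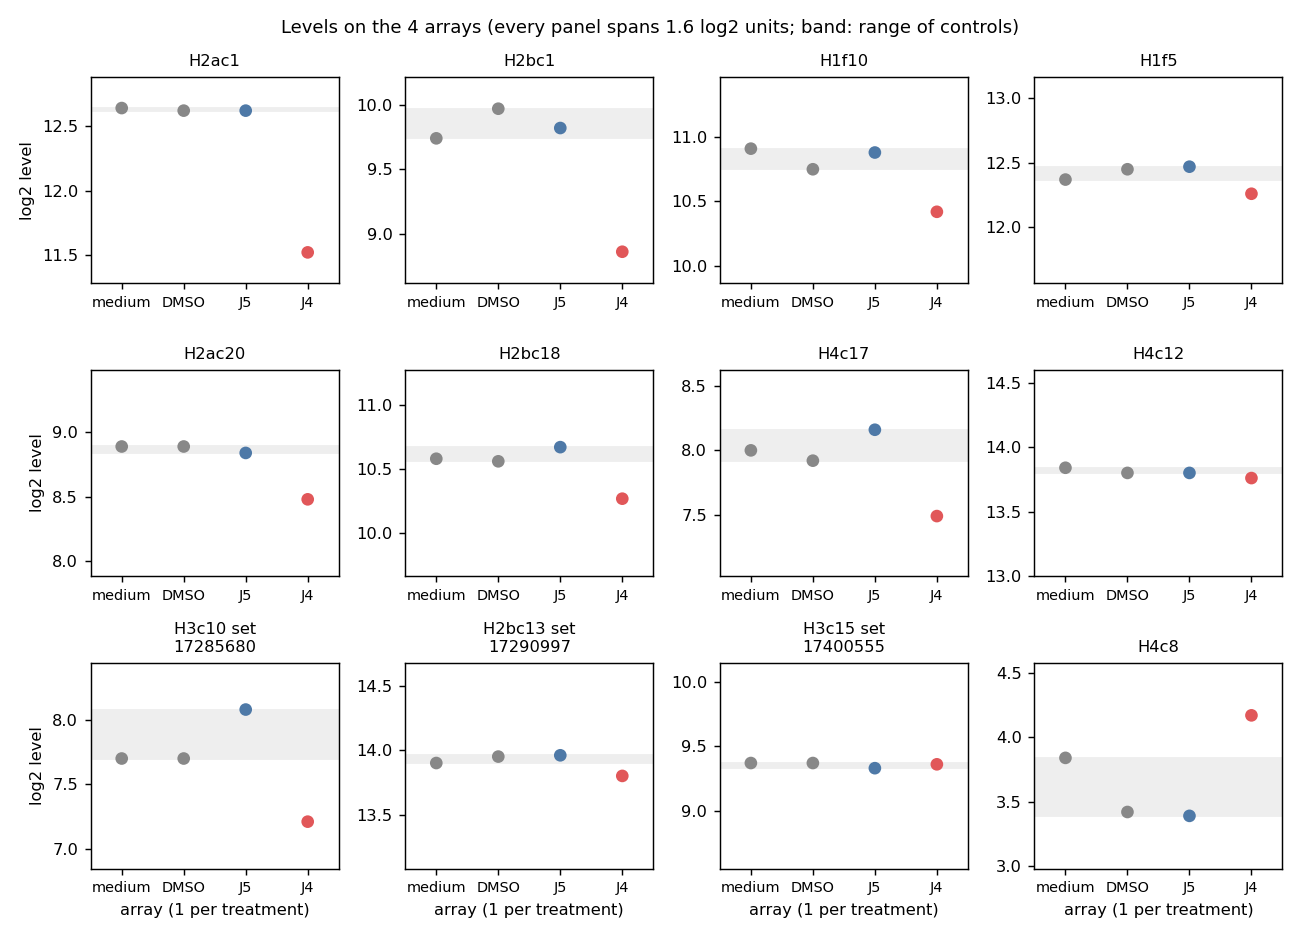
Log2 levels of 12 histone probe sets on the 4 arrays (grey, medium and DMSO; blue, GSK-J5; red, GSK-J4), with every panel spanning the same number of log2 units and a band over the range of the controls. GSK-J4 falls far below the band for H2ac1 (11.52) and H2bc1 (8.86), just below it for H4c12 (13.76), inside it for H3 probe set 17400555 (9.36) and above it for the dim H4c8 (4.17).

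Pooled over classes, the direction went with the level of the probe set. Within classes it did not always: under the filter level 4 of 4 H1 and 5 of 7 H3 probe sets lay below the controls. Past the filter 4 of 4 H1 and 2 of 5 H3 probe sets did. The brightest H3 probe set had a mean level of 9.36, so the counts that follow mix class with level. All 19 members with a mean level of at least 10 lay below the controls: 12 of 12 at 12 or more, where 49.5% of all annotated probe sets did, and 7 of 7 between 10 and 12, where 39.6% did. Their median differences were −0.125 and −0.20, against −0.04 and −0.01 for all annotated probe sets of those levels. The 12 include both pairs of probe sets with identical values, and some others name the same H2A genes, so they are not 12 separate measurements. Between 8 and 10, 4 of 6 members lay below and 0 above, where 28.3% of all annotated probe sets lay below and 47.3% above. Of the 35 members under a level of 8, 17 lay below (48.6%) and 8 above (22.9%), against 36.4% and 24.2% of all annotated probe sets, so the share above was near that of all probe sets. No member above the controls had a mean level over 7.95. Replicate noise at each level was not measured, but the controls of the 35 dim members spanned a median of 0.22, against 0.06 for the 12 brightest.

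**Figure D3:**
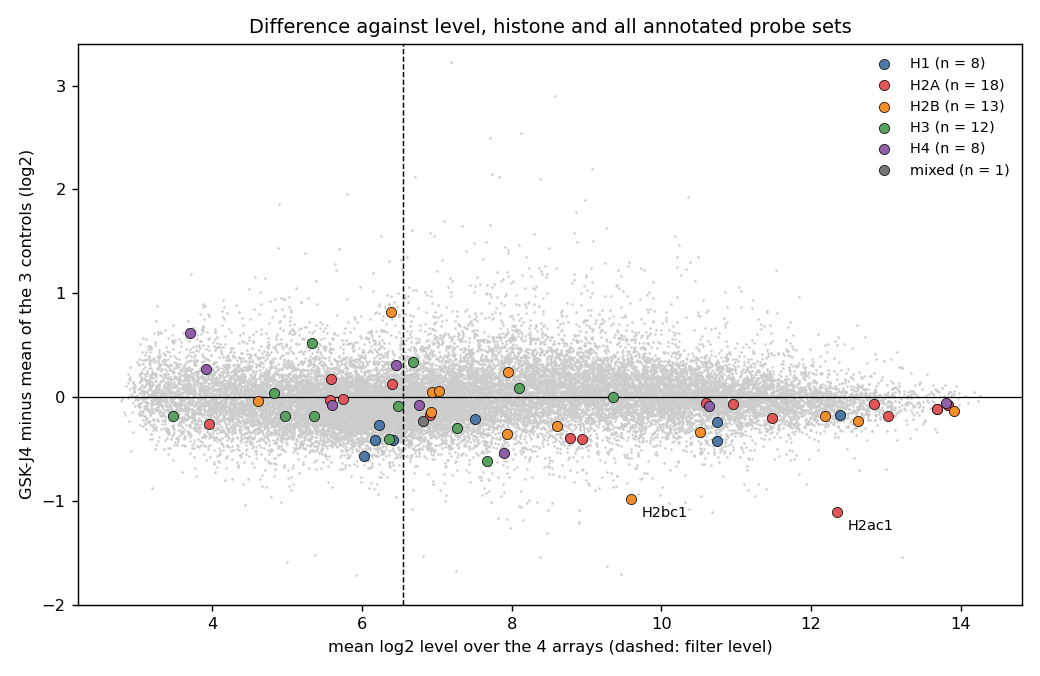
GSK-J4 minus the mean of the 3 controls (log2) against the mean log2 level over the 4 arrays, for all annotated probe sets (grey) and for the histone probe sets coloured by class. The dashed line is the filter level of 6.55. Every histone point at a level of 10 or more lies below 0, and the points scatter to both sides under 8.

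How much a single symbol tells depends on the probe set that carries it. H2ac7, an example chosen after its values were seen, is named on 9 probe sets with mean levels from 5.58 to 13.69 and differences from −0.40 to 0.17, and H2ac12 on 10. The 8 H3 probe sets with identical symbols ranged from 3.48 to 9.36 in level and from −0.40 to 0.52 in difference. Reads of near-identical copies cannot be assigned by these probes, so no value is given for a single gene of such a set. The 30 single-symbol probe sets had a median of −0.20 and the 30 with several symbols −0.10, and 20 of each lay below the controls.

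Against each control in turn, which share the GSK-J4 array, the median of the 60 was −0.165 for GSK-J5, −0.12 for DMSO and −0.105 for medium. The corresponding medians over all annotated probe sets were −0.02, −0.01 and −0.01. The distance to GSK-J5, the isomer at the same dose and time, was the largest of the 3, and GSK-J5 was itself slightly above the other controls: its median difference was 0.035 from DMSO and 0.05 from medium, where all annotated probe sets gave 0.01 and 0.00. GSK-J5 held the highest of the 4 values in 28 of the 60 members (46.7%) against 21.7% of all annotated probe sets, and GSK-J4 the lowest in 40. The H3 probe set 17285680, H4c17 and H1f7 all had this order. With 1 array for each compound the difference between the isomers has no interval.

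**Figure D4:**
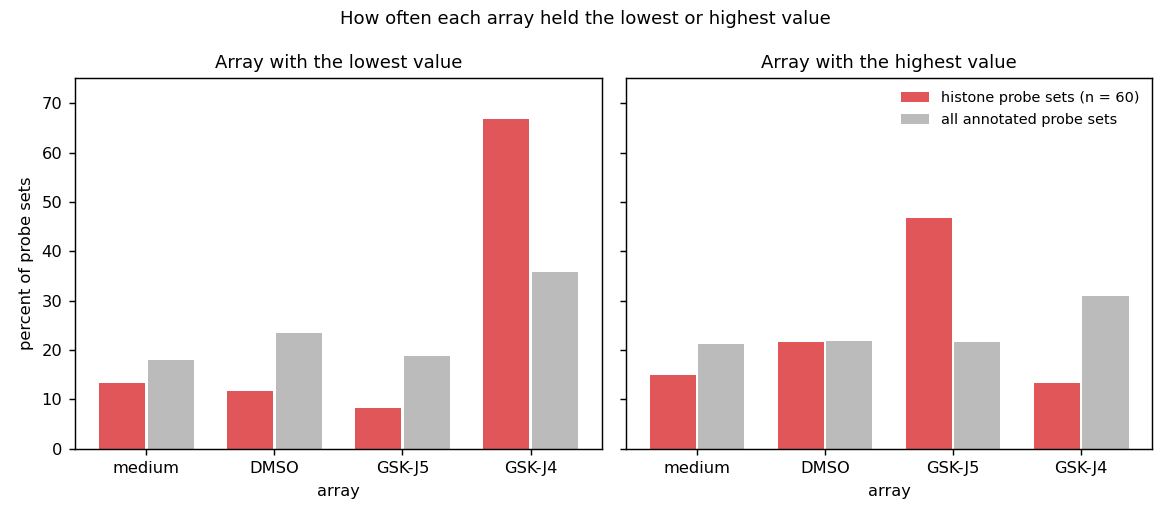
Percent of the 60 histone probe sets (red) and of all annotated probe sets (grey) in which each array held the lowest value (left) or the highest value (right) of the 4. GSK-J4 was lowest in 66.7% of histone probe sets against 35.7% of all, and GSK-J5 was highest in 46.7% against 21.7%.

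Other histone genes outside the rule, mostly variants that are polyadenylated and made throughout the cell cycle, split. Of 8 measured, 3 lay below the controls (37.5%) and 5 above (62.5%), against 35.7% and 30.9% of all annotated probe sets. Their median was 0.07. The highest difference, 0.43, was that of H2aw, which lay under the filter level and was named after its values were seen. The H3.3 variant genes on the list had no single-symbol probe set, so they were not measured. H2az1, an H2A variant of promoters, was called lower, with 7.59 in medium, 7.87 in DMSO, 7.48 in GSK-J5 and 6.83 in GSK-J4. Named after their values were seen, H2ax, the variant phosphorylated at DNA breaks, read 12.77 against 13.08 to 13.10, and H2az2, the paralogue of H2az1, read 12.03 against 11.92 to 11.99.

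Genes that make and process histone mRNA had 0 of 17 called in either direction. The rule called 0.782% of all annotated probe sets past the filter lower and 2.13% higher. Of the 17, 10 lay below the controls (58.8%) and 5 above (29.4%), with a median of −0.12. Coil, the scaffold of Cajal bodies, had the lowest difference (−0.36), and Lsm10, a subunit of the U7 particle that cuts histone pre-mRNA, the highest (0.21). Named after their values were seen, Slbp, which binds the stem-loop, read 11.07 against 11.18 to 11.24, and Npat, which activates histone transcription, 11.00 against 11.11 to 11.17. Both were lowest in GSK-J4, by 0.11.

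Histone chaperones and assembly factors also had 0 of 17 called, 12 below (70.6%) and 3 above (17.6%), with a median of −0.09. Among all annotated probe sets 35.7% lay below and 30.9% above. The share below was 66.7% for the 60 histone members, so a share of that size was not particular to them. Hira, a chaperone of the variant H3.3 complex, differed by −0.19 and Ubn1, a subunit of the same complex, by 0.43. S phase and DNA replication genes had 0 of 28 called, 15 below and 7 above, with a median of −0.055. Tk1, thymidine kinase, differed by −0.54 and Pola1, the catalytic subunit of DNA polymerase alpha, by 0.21. The part of S phase content in the histone values was not tested.

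Pluripotency markers, which check the labelled cell type, passed the filter for 9 of 10 genes. Dppa5a, named after its values were seen, did not, reading 6.31 in medium, 6.59 in DMSO, 6.66 in GSK-J5 and 6.29 in GSK-J4. The median level of 10 genes was 12.55 in medium, 12.53 in DMSO, 12.59 in GSK-J5 and 12.35 in GSK-J4, with Tdgf1 lowest (−0.37) and Esrrb highest (0.17). Of 12 feeder fibroblast markers 8 passed the filter. Below the controls lay 8 (66.7%) and above them 1 (8.33%), against 35.7% and 30.9% of all annotated probe sets. The median level of the 12 was 6.92, 7.13 and 7.04 in the controls and 6.78 in GSK-J4. The median difference of these feeder markers was −0.23, further below 0 than the −0.14 of the 60 histone probe sets. Dcn (−0.69) and Loxl1 (0.22) lay at the ends of that list, and Dcn, Lum, Col3a1 and Postn, the last 3 named after their values were seen, were under the filter level on all arrays. Of 7 blood and endothelial markers 4 passed the filter, 2 lay below (28.6%) and 3 above (42.9%) the controls, and the median difference was 0.07. Their median level read 6.64, 6.68 and 6.69 in the controls and 6.37 in GSK-J4, opposite in sign to the median difference. Laptm5 was called higher (8.45 against 6.92 to 7.16), and Tek (0.56) and Pecam1 (0.40), named after their values were seen, were the other 2 above the controls. The part of other cell types in the histone values was not tested.

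The 8 probe sets left out carry H4bc24, H4f16 or Gm5577 beside histone symbols. Of these, 5 lay below the controls, by 0.01 to 0.05, and 1 above: probe set 17285846, which names 13 H4 symbols, read 6.42 in medium, 6.06 in DMSO, 5.96 in GSK-J5 and 7.12 in GSK-J4, at a mean under the filter. The brightest, with H2B symbols and H4bc24, read 14.06 against 14.09 to 14.13.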

How the data were processed

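The deposited values are log2 expression levels. The submitters' processing notes name RMA and Affymetrix Expression Console (version 1.2.1.20) as the authors' tools; RMA subtracts background, gives the arrays one distribution and combines probes into probe sets. Per the labels' protocols, total RNA was amplified with the WT Expression Kit. The log base was inferred from the values (2.20 to 14.48), a genome build for the array was not given in the sources consulted, and scanner files were not analysed here. Array medians were 6.63 to 6.65.

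Gene symbols come from GEO's platform annotation, which can be old. Members and gene lists were chosen with earlier results of these data known. The filter level is the 40th percentile of the mean over 4 arrays among annotated probe sets. For list genes with several probe sets the brightest was taken. Text names called members, and in each class the brightest and the 2 lowest and 2 highest by margin. From every other list it names called genes, or else the lowest and highest. All other names were chosen after values were seen.

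Alternatives were median centring, repeated quantile normalization, loess (span 0.3), other filters and folds, leaving out each control, single-symbol probe sets, and limma 3.58.1 (Benjamini-Hochberg over the 15212 probe sets past the filter). The rule and limma were tested on simulated data. Promoter sequences are from RefSeq, GRCm38.p6. Work was done in Python 3.11.15 and R 4.3.3.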

Additional observations from a re-analysis of the deposited data

How the results depend on the processing

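Of 114 values recomputed, 96 kept their direction and stayed within a tolerance: for counts 1.5 times, for medians the SD of the 3 medians against each control. That tolerance is wide for H4, whose median went from −0.0633 to −0.0195 under loess and −0.0275 without GSK-J5. The called counts (2 lower, 0 higher) became 7 and 1 at 1.2-fold, 1 and 0 at 2-fold, and 5 and 0 with limma; leaving out medium, DMSO or GSK-J5 in turn gave 2 lower and 0 higher each time. Leaving out a control could only keep or enlarge a margin, which is taken to the nearest control. Those runs could therefore add calls but could not remove the 2, and they added none. The counts below and above all controls could likewise only rise, to 43, 43 and 42 below and 9, 9 and 10 above. These outcomes are among the 96, but they could not test whether the lower calls hold. With single-symbol probe sets alone, which are fewer, 20 lay below and 3 above the controls, and among members past the filter 2 lay above. Counting identical pairs once, added after seeing the data, gave 38 below and 8 above; adding the 8 left-out probe sets gave 45 and 9. The median over all members was −0.17 past the filter, −0.20 for single-symbol probe sets and −0.10 without the germ line histones and H1f10. For H1 it was −0.23 past the filter and −0.23 without the germ line members and H1f10, for H2A −0.18 with single symbols, and for H3 −0.092 under loess and, turning sign, 0.0033 past the filter. Against GSK-J5 it was −0.21 with single symbols; against DMSO, −0.16 past the filter and −0.21 with single symbols. Beyond the smaller sets these choices leave, the cause was not tested. No paired analysis was possible because each treatment has 1 array. The number of arrays, and levels near an unknown background, limit the precision.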
